A study of Mus musculus with 12 samples.

Results

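The 9 genes described here encode the subunits of the AMPA receptors (Gria1 to Gria4) and of the kainate receptors (Grik1 to Grik5), the ionotropic glutamate receptors that carry fast excitatory current. They were chosen by name, 4 AMPA and 5 kainate subunits, from 19336 named genes, with no measured value in the rule. The choice was made with earlier results of these data known. All 9 passed the filter on low counts and stand among the 15656 genes tested. RNA was sequenced from hippocampal cultures of WT mice at postnatal day 4, which the labels call neuronal, to ask which genes answer to back signaling by Nrg1 in the cell that carries it. Soluble ErbB4 (sErbB4), the ectodomain of an Nrg1 receptor, starts this signaling, and DAPT inhibits γ-secretase, the protease that frees the intracellular domain of Nrg1 and also cuts Notch and other substrates. Cultures received vehicle, 20 nM sErbB4 for 4 h, 20 µM DAPT, or DAPT followed by 20 nM sErbB4, with 3 libraries in each of the 4 groups. The sources used here differ on which day of culture DAPT was started and on how long it was left on. The cultures shared the WT genotype and no allele was changed in any group. Libraries came from platings of pooled pups, and the labels do not say which platings share a litter, so p values measure the spread between these libraries.

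AMPA receptors are tetramers of GluA1 to GluA4, the proteins of Gria1 to Gria4, and their subunit makeup sets conductance, calcium permeability and traffic to the synapse. Kainate receptors combine GluK1, GluK2 or GluK3 (Grik1 to Grik3), which can form channels on their own, with GluK4 or GluK5 (Grik4, Grik5), which raise agonist affinity and need a partner from the first set. In the hippocampus GluA1 and GluA2 are the main AMPA subunits of pyramidal and granule cells, and kainate receptors with GluK4 and GluK5 are known from mossy fiber synapses onto CA3 pyramidal cells.

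Calcium flow through these channels turns on the Q/R site of the pore loop, where glutamine lets calcium pass and arginine blocks it. In Gria2, Grik1 and Grik2 the arginine arises only in the RNA, through A-to-I editing of a glutamine codon. The coding sequence around this codon is shown for all 9 genes because the genomic codon is what the members share. Each run holds 45 bases, 5′ to 3′ on the coding strand, built from the exons of the GENCODE M21 annotation on GRCm38 (mm10), and the capitals mark the Q/R-site codon, whose position is in parentheses. The run crosses an exon junction in every member but Grik4 and Grik5.
Gria1 (chr11:57243094-57243096, plus strand): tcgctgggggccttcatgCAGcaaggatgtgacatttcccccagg
Gria2 (chr3:80706911-80706913, minus strand): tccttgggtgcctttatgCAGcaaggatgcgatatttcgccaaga
Gria3 (chrX:41610265-41610267, plus strand): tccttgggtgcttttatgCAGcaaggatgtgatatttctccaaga
Gria4 (chr9:4464137-4464139, minus strand): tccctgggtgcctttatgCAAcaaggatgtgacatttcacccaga
Grik1 (chr16:87940542-87940544, minus strand): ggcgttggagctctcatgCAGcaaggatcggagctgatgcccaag
Grik2 (chr10:49244329-49244331, minus strand): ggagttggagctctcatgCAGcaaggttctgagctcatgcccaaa
Grik3 (chr4:125691207-125691209, plus strand): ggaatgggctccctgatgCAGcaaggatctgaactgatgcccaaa
Grik4 (chr9:42547623-42547625, minus strand): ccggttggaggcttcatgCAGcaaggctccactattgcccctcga
Grik5 (chr7:25022497-25022499, minus strand): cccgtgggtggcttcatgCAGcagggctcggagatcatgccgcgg
The genome spells glutamine in every member, as CAG in 8 of them and as CAA in Gria4. In each gene the codon lies 29 codons before the start of the motif that ends the pore stretch and that all 9 share. Counted from the start codon, it was codon 607 in the Gria2 transcript used and codon 600 in that of Gria1. Over the 45 bases, Gria2 and Gria3 were the most alike at 93.3% identical, Grik1 and Grik2 shared 88.9%, and AMPA pairs in general shared 80% or more. Between an AMPA and a kainate subunit identity ran no higher than 66.7%, and Grik4 and Grik5 shared 68.9%. Gene counts carry no base calls, so how much of any of these transcripts was edited was not measured.

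Deposited totals ran from 36518802 to 54350270 estimated counts per library, of which named genes received 18697788 to 30777171. From 43.4 to 51.8% of a library fell on loci without a gene name, and among named genes Rn45s, which gives ribosomal RNA, took 31.4 to 44.6%. On the second principal component of log2 levels (12.8% of the variance) sErbB4 replicate 1 scored 47.8 and vehicle replicate 3 scored 30.2, while the other libraries scored between -16.7 and 0.926. Gria2 is the member this touches most, and its level, share and ratio are given with and without them. Levels are in CPM, counts scaled to a common library size, with library sizes normalized by TMM, a scaling that centers most genes between libraries. The deposited values behave as already corrected for transcript length, so CPM values of different genes are compared directly, and a second division by length is given where it changes the order.

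AMPA and kainate subunits spanned a 17.8-fold range of level, from Grik1 at 4.88 ± 0.667 CPM to Grik5 at 86.8 ± 3.63 CPM (mean ± SD over all 12 libraries). In vehicle cultures the order was Grik5 (88.1 ± 2.69 CPM), Gria1 (70.2 ± 1.31), Gria2 (66.9 ± 9.86), Gria3 (26.9 ± 0.794), Grik4 (21.7 ± 1.28), Gria4 (18.1 ± 1.69), Grik2 (9.70 ± 1.20), Grik3 (8.82 ± 0.377) and Grik1 (4.17 ± 0.430), each over n = 3 libraries. The libraries of Gria1 and Gria2 overlapped, as did those of Grik2 and Grik3, and every other neighbor in this order was separated in all 3 libraries. The AMPA set was therefore led by Gria1 and Gria2, and the kainate set by Grik5, the high-affinity subunit that needs a partner, with the channel-forming Grik1, Grik2 and Grik3 far below it. With DAPT the order differed in a pair of places. Gria1 stood first at 89.8 ± 2.30 CPM with DAPT alone, where its libraries overlapped those of Grik5 (85.4 ± 5.18), and at 94.7 ± 1.64 CPM with DAPT and sErbB4, where they lay above all 3 values of Grik5 (85.8 ± 3.33). Grik4 stood above Gria3 in both DAPT groups and below it in both groups without DAPT, with no overlap in any of the 4 groups. Dividing by transcript length moved only the 3 lowest members, putting Grik1 above Grik2 and Grik3.

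**Figure D1:**
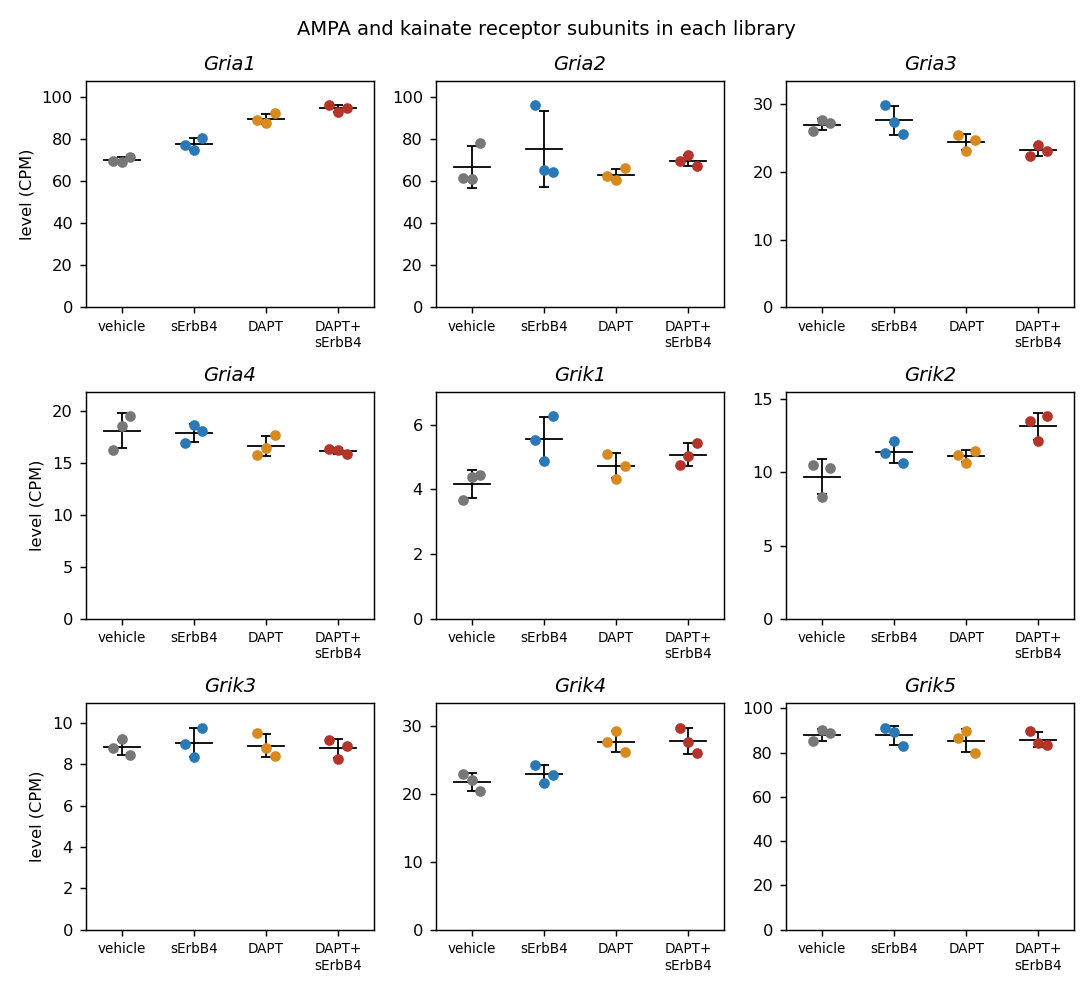
Level of each subunit (CPM, axis from 0) in the 3 libraries of each treatment group. Points are libraries, horizontal lines are group means and bars are SD. All 6 DAPT libraries of Gria1 (87.9 to 96.2 CPM) and Grik4 (26.0 to 29.7 CPM) lie above the 6 without DAPT, and those of Gria3 lie below. Over all genes 8.6% lie above and 11.8% below in this way. Gria2 has its highest values in sErbB4 replicate 1 and vehicle replicate 3.

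DAPT was compared with vehicle, and DAPT followed by sErbB4 with sErbB4 alone, to see how the subunits stood when γ-secretase was inhibited. These 2 comparisons share no library. Gria1 and Grik4 were the only members called changed in DAPT against vehicle, by the rule that follows, and both were higher. A gene is called changed at an adjusted p under 0.05, from edgeR's quasi-likelihood test with Benjamini-Hochberg adjustment over all 15656 genes, together with a log2 fold change beyond 0.322 in either direction, which is a level 25% higher or the same ratio lower. By this rule 2 of 9 members were called in DAPT against vehicle, both higher, where 11.6% of all genes were called (4.66% higher, 6.92% lower). None of the 9 was called in DAPT and sErbB4 against sErbB4, where 11.7% of all genes were. There 3 passed the adjusted p alone (24.5% of all genes did). An unadjusted p under 0.05 was reached by 4 members and by 5589 of the 15656 genes. In DAPT against vehicle no further member passed the adjusted p alone, which 23.7% of all genes did. DESeq2 and limma called the same number of members as edgeR in each of these comparisons, 2 and 0. For the average of the DAPT effects over all 12 libraries edgeR and DESeq2 called 0 members and limma called 1, Gria1, where edgeR called 13.2% of all genes. By the adjusted p alone 4 members passed for this average (Gria1, Grik2, Gria3 and Grik4), as 37.8% of all genes did. For this average 5 members and 7105 of the 15656 genes had an unadjusted p under 0.05. The interaction of DAPT and sErbB4 was called for 0 members by edgeR, DESeq2 and limma, and by edgeR for 0.00639% of all genes. No member had an unadjusted p under 0.05 for it, where 565 of the 15656 genes did. The median log2 fold change of the members was 0.02 in the first comparison and -0.04 in the second, and 0.01 in both over all genes. Their median absolute log2 fold change was 0.14 and 0.15, beside 0.16 over all genes in both.

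Gria1 encodes GluA1, the subunit whose insertion at synapses is driven by activity during potentiation. The gene lies at chr11:57011387-57330244 on the plus strand (GRCm38). Its level was 69.9, 69.1 and 71.7 CPM in the vehicle libraries and 89.0, 87.9 and 92.3 CPM in those with DAPT. With sErbB4 alone it was 77.2, 75.1 and 80.9 CPM, and with DAPT and sErbB4 it was 96.2, 93.0 and 95.0 CPM. No DAPT library overlapped any library without DAPT, a separation upward that 8.6% of all genes showed. The log2 fold change was 0.35 ± 0.04 (SE) against vehicle (edgeR adjusted p = 6.17e-05) and 0.29 ± 0.04 with sErbB4 in both groups (edgeR adjusted p = 0.000276), which is under the limit of 0.322. Averaged over both, it was 0.320 ± 0.03 (edgeR adjusted p = 3.74e-06), just under the limit. The effects with and without sErbB4 were not shown to differ, with an interaction of -0.07 ± 0.05 (edgeR adjusted p = 1.00). The call against vehicle held in each of the 21 other settings tried, with log2 fold changes between 0.34 and 0.39.

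Gria2 encodes GluA2, whose edited form makes AMPA receptors impermeable to calcium, and lies at chr3:80681450-80802835 on the minus strand. Vehicle libraries held 61.3, 61.1 and 78.3 CPM and DAPT libraries 62.5, 60.8 and 66.2 CPM. With sErbB4 alone the values were 96.1, 65.2 and 64.3 CPM, and with DAPT and sErbB4 they were 69.5, 72.5 and 67.2 CPM. The high values of 78.3 and 96.1 CPM belong to vehicle replicate 3 and sErbB4 replicate 1, the libraries that stand apart, and all groups overlapped except DAPT and DAPT with sErbB4. The log2 fold change with DAPT was -0.08 ± 0.14 against vehicle and -0.11 ± 0.14 with sErbB4 in both groups (edgeR adjusted p = 0.744 and 0.650). Without those 2 libraries the signs turned, to 0.046 and 0.11, and the 4 remaining libraries without DAPT held 61.1 to 65.2 CPM. No direction is therefore given for Gria2.

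Gria3, which encodes GluA3, stood lower with DAPT by a small amount. Gria4, which encodes GluA4, a subunit prominent in interneurons and in young tissue, had lower means with DAPT but did not pass edgeR's adjusted p. Gria3 (chrX:41400854-41678601, plus strand) was at 26.0, 27.6 and 27.1 CPM with vehicle and 25.3, 23.1 and 24.7 CPM with DAPT. It was at 29.7, 27.3 and 25.6 CPM with sErbB4 and at 22.4, 23.9 and 23.0 CPM with DAPT and sErbB4. All 6 DAPT libraries lay below the 6 others, as they did for 11.8% of all genes, the nearest values being 25.3 and 25.6 CPM. DAPT alone lay below vehicle for 21.1% of all genes. The log2 fold change was -0.14 ± 0.06 against vehicle (edgeR adjusted p = 0.106), -0.25 ± 0.06 with sErbB4 in both groups (edgeR adjusted p = 0.00716) and -0.20 ± 0.04 on average (edgeR adjusted p = 0.00248), none past the fold limit. Gria4 (chr9:4417896-4796234, minus strand) ranged from 16.2 to 19.5 CPM in the 6 libraries without DAPT and from 15.8 to 17.7 CPM in the 6 with it, which overlap. In the sErbB4 pair alone the groups were apart, with DAPT below, as for 19.9% of all genes. Its average log2 fold change was -0.13 ± 0.05 (edgeR adjusted p = 0.0519), short of the threshold.

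Among the kainate subunits, Grik1 (GluK1, chr16:87895900-88290265, minus strand), the kainate subunit known from hippocampal interneurons, was the lowest member and did not pass the test in either DAPT comparison. Its levels ran from 3.68 to 6.26 CPM without DAPT and from 4.34 to 5.44 CPM with it, one range inside the other. The log2 fold change was 0.19 ± 0.12 against vehicle and -0.12 ± 0.11 with sErbB4 in both groups (edgeR adjusted p = 0.296 and 0.482), opposite in sign, and the interaction of -0.31 ± 0.16 had an edgeR adjusted p of 1.00. Grik2 (GluK2, chr10:49094833-49788766, minus strand), the main channel-forming subunit of principal cells, was at 10.5, 8.32 and 10.3 CPM with vehicle and 11.2, 10.6 and 11.5 CPM with DAPT. It was at 11.3, 12.1 and 10.7 CPM with sErbB4 and at 13.5, 12.1 and 13.8 CPM with DAPT and sErbB4. DAPT lay above vehicle in every library, as it did for 20% of all genes, while the sErbB4 pair overlapped at 12.1 CPM. The average log2 fold change of Grik2 was 0.20 ± 0.06 (edgeR adjusted p = 0.0234), under the fold limit. Grik3 (GluK3, chr4:125490700-125714173, plus strand), known as a subunit of low glutamate sensitivity, stayed within 8.25 to 9.78 CPM over all 12 libraries, with log2 fold changes of 0.02 ± 0.07 and -0.04 ± 0.07 (edgeR adjusted p = 0.928 and 0.779).

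Grik4 (GluK4, chr9:42518135-42944493, minus strand), a high-affinity subunit found at mossy fiber synapses, rose with DAPT. Vehicle libraries held 22.9, 22.0 and 20.3 CPM and DAPT libraries 27.6, 29.2 and 26.2 CPM. With sErbB4 alone the values were 24.3, 21.5 and 22.8 CPM, and with DAPT and sErbB4 they were 29.7, 27.6 and 26.0 CPM. All 6 DAPT libraries lay above the 6 others, as they did for 8.6% of all genes, the nearest values being 26.0 and 24.3 CPM. The log2 fold change was 0.35 ± 0.07 against vehicle (edgeR adjusted p = 0.00323), 0.28 ± 0.07 with sErbB4 in both groups (edgeR adjusted p = 0.00891) and 0.31 ± 0.05 on average (edgeR adjusted p = 0.000291), the last pair under the limit. The call against vehicle rests on the fold limit. Without vehicle replicate 3 the log2 fold change was 0.30, and without DAPT replicate 2 it was 0.31, both under the limit but past the adjusted p. Without sErbB4 replicate 1 the other comparison reached 0.33 and was called. With both libraries that stand apart left out, the values were 0.30 against vehicle, under the limit, and 0.33 in the sErbB4 pair, past it. Its partner in the high-affinity class, Grik5 (GluK5, chr7:25009849-25072346, minus strand), held 83.0 to 91.3 CPM without DAPT and 79.6 to 89.7 CPM with it, and these ranges overlap. Grik5 had log2 fold changes of -0.05 ± 0.05 against vehicle and -0.03 ± 0.05 with sErbB4 in both groups (edgeR adjusted p = 0.613 and 0.710).

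**Figure D2:**
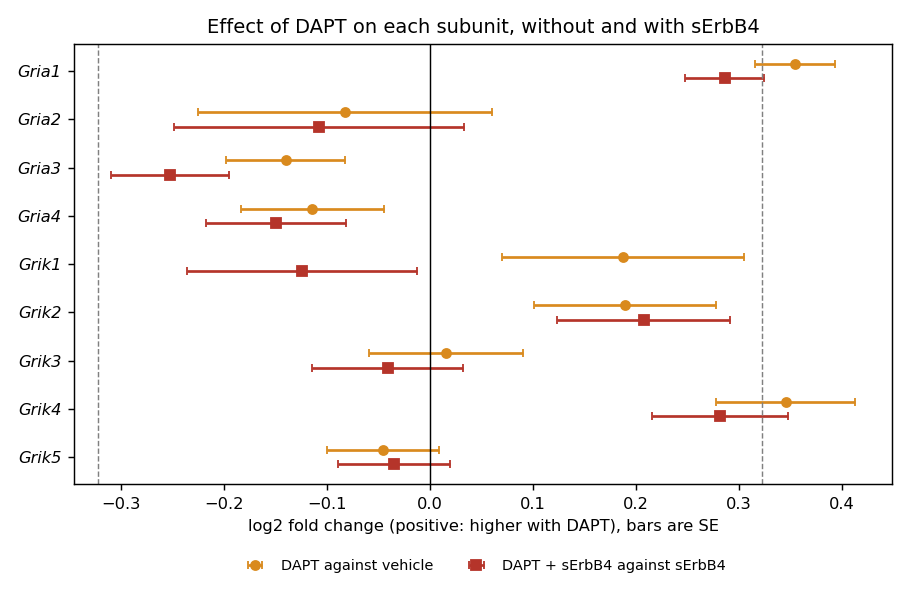
Log2 fold change of each subunit with DAPT (positive is higher with DAPT), without sErbB4 (orange circles) and with sErbB4 in both groups (red squares), with SE bars and dashed lines at the limit of 0.322 in each direction. Gria1 and Grik4 pass the line at 0.35 without sErbB4 and stand at 0.29 and 0.28 with it, while Gria3 stands at -0.14 and -0.25.

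sErbB4 was compared with vehicle to see the effect of the ligand while γ-secretase was active, and it was compared in the presence of DAPT as well. No member was called in either comparison by edgeR, DESeq2 or limma, where edgeR called 0.0319% and 0% of all genes, and both comparisons use the same libraries as the DAPT comparisons above. Gria1, Grik1 and Grik2 had all 3 sErbB4 libraries above the 3 vehicle libraries, which 5.49% of all genes showed, with log2 fold changes of 0.15 ± 0.04, 0.41 ± 0.12 and 0.22 ± 0.09 (edgeR adjusted p = 0.429, 0.452 and 0.611). These were also the 3 members with an unadjusted p under 0.05, which 1184 of the 15656 genes had. With DAPT present, Gria1, Gria2 and Grik2 had all 3 sErbB4 libraries above the 3 with DAPT alone, a pattern of 9.17% of all genes, with log2 fold changes of 0.08 ± 0.04, 0.14 ± 0.14 and 0.24 ± 0.08 (edgeR adjusted p = 0.581, 0.845 and 0.439). Of these only Grik2 had an unadjusted p under 0.05, which 1442 of the 15656 genes had. The groups of Gria1 thus ran from vehicle through sErbB4 and DAPT to DAPT with sErbB4. Neighboring groups did not overlap (the nearest values were 92.3 and 93.0 CPM), although the sErbB4 steps did not pass the test. How many of all genes showed this order was not determined here.

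DAPT was also compared directly with sErbB4, which sets the cultures with γ-secretase inhibited and no ligand against those with ligand and active protease. It uses DAPT and sErbB4 libraries that the other comparisons also use. No member was called, where 10.1% of all genes were, and DESeq2 and limma called 0 members as well. Gria1 at 0.21 ± 0.04, Grik4 at 0.28 ± 0.07 and Gria3 at -0.18 ± 0.06 passed the adjusted p alone, as 20.9% of all genes did. Their edgeR adjusted p values were 0.00267, 0.0116 and 0.0477. These 3 members were also those with an unadjusted p under 0.05, which 5111 of the 15656 genes had. Without DAPT replicate 3, Grik4 reached 0.32 and was called.

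Within the AMPA family, Gria1 took a larger share of the summed level in the DAPT libraries. Its share was 39.0 ± 2.83% in the 6 libraries without DAPT (35.1 to 42.9%) and 46.4 ± 0.761% in the 6 with it (45.2 to 47.3%), with no overlap. The share of Gria3 was 14.4 ± 0.878% without and 11.9 ± 0.776% with DAPT, that of Gria2 37.1 ± 3.84% and 33.4 ± 1.11%, and that of Gria4 9.53 ± 0.982% and 8.27 ± 0.419%. The AMPA sum was 190.3 ± 16.8 CPM without and 198.8 ± 6.91 CPM with DAPT, and these ranges overlap. The ratio of Gria2 to Gria1, the pair that sets how much calcium-impermeable subunit RNA stands beside GluA1 RNA, ranged from 0.794 to 1.245 without DAPT and from 0.691 to 0.780 with it. The lowest value without DAPT, 0.794, and the highest with it, 0.780, lie close together. Without the libraries that stand apart, the 4 left without DAPT had a ratio of 0.856 ± 0.0416 (0.794 to 0.884), beside 0.720 ± 0.0313 with DAPT and 0.960 ± 0.172 over all 6. In the same 4 libraries the Gria2 share was 34.8 ± 0.563%, the Gria1 share 40.7 ± 1.55% and the AMPA sum 181.2 ± 7.44 CPM. Shares follow from the levels above and carry no test, and each group of 6 pools cultures with and without sErbB4.

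Within the kainate family the high-affinity subunits took most of the RNA, and Grik4 stood higher relative to Grik5 with DAPT. Grik4 held 16.6 ± 0.849% of the kainate sum without DAPT and 19.9 ± 0.556% with it, and Grik5 held 65.4 ± 1.72% and 61.5 ± 0.799%, with ranges that overlap (62.7 to 67.3% and 60.6 to 62.8%). The Grik5 to Grik4 ratio ranged from 3.64 to 4.37 without and from 3.01 to 3.20 with DAPT, with no overlap. Grik1, Grik2 and Grik3 together made up the rest, led by Grik2 at 7.82 ± 0.889% and 8.73 ± 0.915%. The kainate sum was 134.6 ± 3.77 CPM without and 139.2 ± 5.55 CPM with DAPT.

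**Figure D3:**
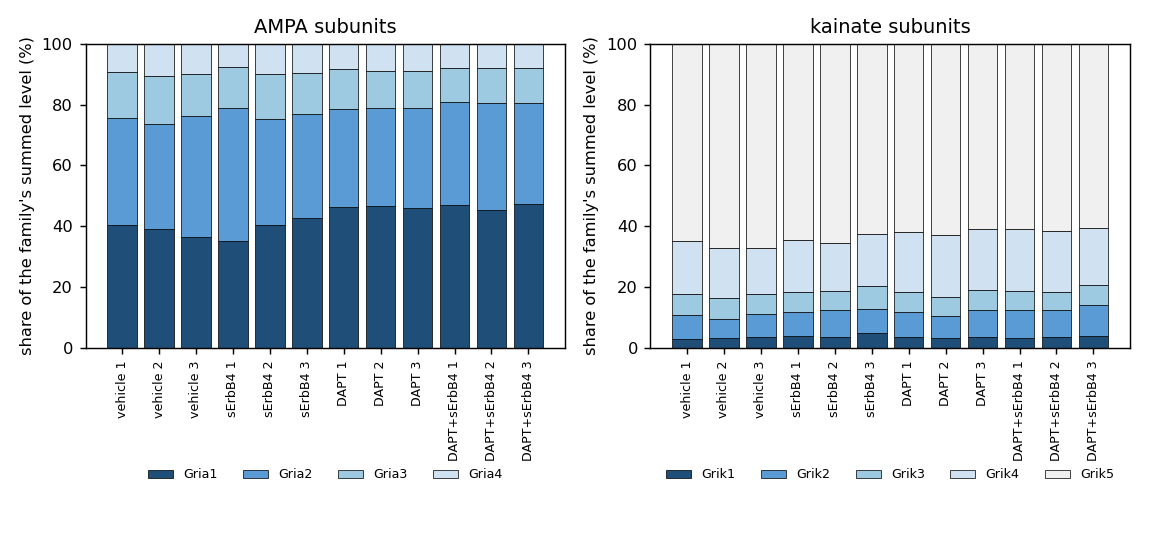
Share of each AMPA subunit (left) and kainate subunit (right) in the summed level of its family (percent), with one bar per library. Gria1 holds 35.1 to 42.9% of the AMPA sum in the 6 libraries without DAPT and 45.2 to 47.3% in the 6 with it, and Grik5 holds the largest part of every kainate bar.

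The cultures held more than neurons, and several cell type markers moved with DAPT beside Gria1 and Grik4. Of 6 neuronal markers, 5 were higher by the adjusted p in the average DAPT effect and 3 were called, with Snap25 at 0.35, Stmn2 at 0.35, Syt1 at 0.34, Rbfox3 at 0.23 and Map2 at 0.18 on the log2 scale, beside 0.32 for Gria1 and 0.31 for Grik4. Tubb3, the other one, was lower at -0.13. Their summed level was 1067 to 1271 CPM without DAPT and 1227 to 1407 CPM with it. Of 5 glutamatergic markers 4 were higher by the adjusted p (sum 187.3 to 221.4 CPM without, 231.7 to 280.9 CPM with DAPT), with Neurod6 at 0.38 and Slc17a7 at 0.30. Of 6 GABAergic markers 1 was higher (sum 121.7 to 190.8 and 144.8 to 165.5 CPM), and of 3 tested granule cell markers 1 was (sum 41.1 to 51.3 and 46.6 to 51.8 CPM). Over all genes 18.1% were higher by this measure. By the call that includes the fold limit, 7.7% of all genes were lower and 5.54% higher for this average. Markers of precursors and dividing cells were lower for the most part. Oligodendrocyte precursor markers were called lower in 4 of 6, and 5 of 6 were lower by the adjusted p. The precursor sum went from 999.1 to 1084 CPM down to 521.1 to 594.7 CPM. Radial glia markers were called lower in 3 of 5, none was called higher, and Sox2 was higher by the adjusted p alone at 0.11. Their sum of 3760 to 4423 CPM without DAPT and 1946 to 2253 CPM with it followed Fabp7, at 2588 to 3051 CPM and 692.3 to 787.9 CPM, while the other 4 summed to 1135 to 1373 CPM and 1204 to 1465 CPM, ranges that overlap. All 5 markers of cycling cells were called lower, from a sum of 49.5 to 58.8 CPM to 19.1 to 24.2 CPM. Astrocyte markers split, with Gja1 called higher (0.61) and 2 of 6 called lower, Aldh1l1 (-0.61) and Slc1a3 (-0.43). Slc1a2 was lower by the adjusted p alone at -0.20, and Aqp4 at 0.11 did not pass. The astrocyte sum was 5632 to 6701 CPM without and 6314 to 7099 CPM with DAPT. Most of this sum was Gfap, at 4229 ± 292 CPM with vehicle and 4972 ± 184 CPM with DAPT. Gfap was higher by the adjusted p alone at 0.26. Of the markers of myelin, microglia, pericytes and fibroblasts, and endothelium, 1 of 5, 1 of 6, 2 of 5 and 0 of 4 were called lower, and 1 of the pericyte and fibroblast markers was called higher. No marker on these lists was at 0 in any library. In bulk RNA, fewer cells of a type and less RNA per cell cannot be told apart, and the part of cell makeup in the Gria1 and Grik4 differences was not tested.

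**Figure D4:**
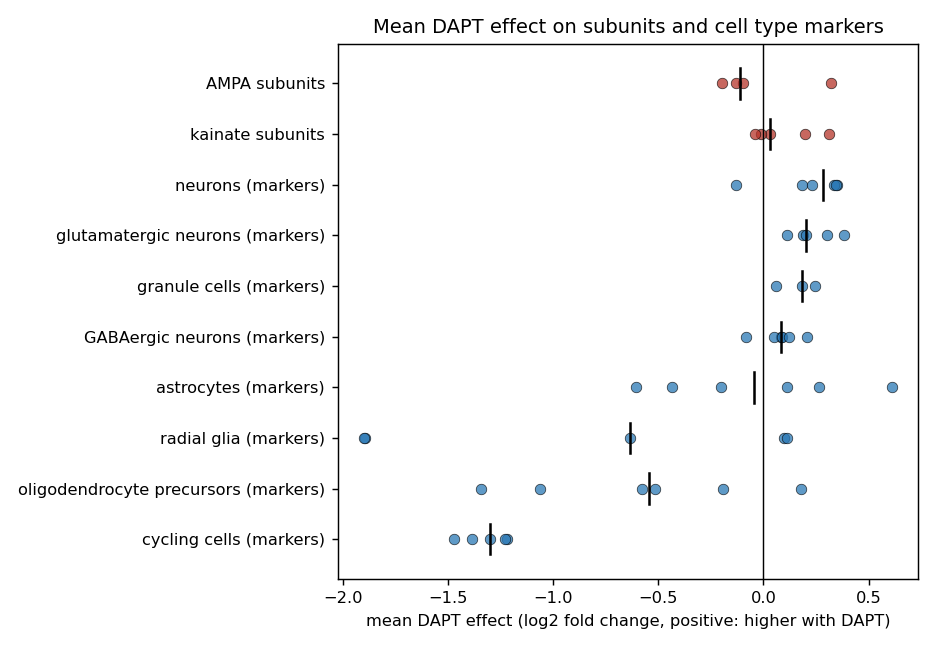
Average DAPT effect (log2 fold change, positive is higher with DAPT) of the AMPA and kainate subunits (red) beside markers of cell types (blue), one point per gene and a black line at each median. The neuronal markers range from Tubb3 (-0.13) to Snap25 (0.35). Gria1 (0.32) and Grik4 (0.31) lie within this range, as do Gria2 (-0.095), Grik1 (0.03), Grik2 (0.20), Grik3 (-0.01) and Grik5 (-0.04). Gria3 (-0.20) lies below it, and Gria4 (-0.1318) just below Tubb3 (-0.1317). Tubb3 alone sets the lower end, the next neuronal marker being Map2 at 0.18. The markers of cycling cells have the lowest median (-1.30).

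The RNA of genes for proteins that assemble with AMPA receptors moved in both directions. Of 15 AMPA auxiliary subunit genes, 2 rose and 2 fell with DAPT against vehicle, and 1 rose and 2 fell with sErbB4 in both groups. Over all genes 11.6% were called in the first comparison and 11.7% in the second. The median log2 fold change of the list was -0.02 and 0.02 (0.01 over all genes). Cacng4 and Cacng5, which encode the TARPs γ-4 and γ-5, were the pair called in both comparisons, as 8.11% of all genes were. Cacng4 went from 147.7 ± 7.53 CPM with vehicle to 92.7 ± 1.22 CPM with DAPT and from 136.4 ± 12.2 to 90.2 ± 4.94 CPM in the sErbB4 pair (log2 fold changes -0.67 and -0.60). Cacng5 went from 57.2 ± 0.749 to 33.1 ± 1.66 CPM and from 48.4 ± 4.35 to 31.0 ± 2.11 CPM (-0.79 and -0.65). Of the 2 kainate auxiliary genes, Neto1, whose protein slows kainate receptor gating, rose in both comparisons, from 7.93 ± 0.297 to 10.3 ± 0.302 CPM and from 8.54 ± 0.901 to 11.4 ± 0.255 CPM (0.38 and 0.42). Neto2 was not called in either, at 0.08 and 0.15.

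Genes for receptor assembly and trafficking had median log2 fold changes of 0.05 against vehicle and -0.01 in the sErbB4 pair (0.01 over all genes). Of these 15 genes none was called in the sErbB4 pair, where 11.7% of all genes were. Against vehicle, where 11.6% of all genes were called, 1 rose. The one was Arc, which drives AMPA receptor endocytosis, at 4.42 ± 0.348 CPM with vehicle and 6.18 ± 0.562 CPM with DAPT (log2 fold change 0.48 ± 0.11, edgeR adjusted p = 0.0097). Kif5a, a motor that carries receptor cargo, was higher by the adjusted p alone, at 0.29 and 0.18. None of the 3 genes for RNA editing enzymes was called. Adarb1, which encodes the enzyme that edits the Q/R site of Gria2, was higher by the adjusted p alone, at 24.6 ± 1.39 CPM with vehicle and 28.9 ± 1.41 CPM with DAPT (0.23) and at 0.16 in the sErbB4 pair, and Adarb2, without known editing activity, was at 0.21 and 0.04 with wide errors.

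Secreted and surface organizers of glutamatergic synapses had 1 of 12 called, lower, against vehicle and 2 of 12, higher, in the sErbB4 pair. Over all genes 11.6% and 11.7% were called. The medians of the list were 0.14 and 0.22, beside 0.01 over all genes in both. C1ql3, a secreted ligand at such synapses, was higher by 0.26 and 0.43, called in the second. Nptxr, the neuronal pentraxin receptor that gathers AMPA receptors, had the largest average difference of this list, 0.46 ± 0.28, but its libraries varied widely and it did not pass (edgeR adjusted p = 0.236). Grid1, a relative of the AMPA and kainate subunits, was not called, with an average effect of -0.04. Of 5 genes for glutamate supply none was called against vehicle and 2 were called higher in the sErbB4 pair, beside the same shares of all genes. Slc17a7, the vesicular transporter VGLUT1, was at 0.27 and 0.33, called in the second, and Slc17a8, VGLUT3, was at 0.70 and 0.34, called in neither, at 0.840 ± 0.288 CPM with vehicle.

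The other receptor families had members called in both DAPT comparisons, which no AMPA or kainate subunit was and which 8.11% of all genes were. Of 7 NMDA receptor subunit genes these were Grin2a, higher at 0.43 and 0.45, and Grin2c, lower at -1.40 and -1.42, from 10.5 ± 0.324 to 3.98 ± 0.387 CPM against vehicle. Of 7 tested metabotropic receptor genes they were Grm3, lower at -1.32 and -1.42, and Grm7, higher at 0.40 and 0.39. Among 12 tested GABA-A receptor subunit genes, Gabra5 was higher at 0.41 and 0.37. Counting either comparison, 5 of these NMDA genes, 2 of the metabotropic and 5 of the GABA-A genes were called, beside 2 of the 9 AMPA and kainate subunits and 15.2% of all genes. Whether these families differ from the AMPA and kainate subunits was not tested.

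Across the 12 libraries, the genes whose log2 level ran most like that of a member were sought among the 10880 genes whose mean level reached 5 CPM, as a description in which the libraries share their treatment groups. For Gria1 they were Atp8a1 and Gprasp1 (Pearson r = 0.980 and 0.974), at 22.9 and 71.4 CPM without and 27.3 and 83.8 CPM with DAPT. For Grik4 they were Ptms and Uba6 (r = 0.959 and 0.949), and for Gria3 Ubp1 and Kansl2 (r = 0.943 and 0.939). For Gria2 they were Nktr and Srek1 (r = 0.920 and 0.912), whose means with and without DAPT were alike, 14.4 and 14.4 CPM for Nktr. The remaining members had Med16 and Mtfp1 (Grik5), Bnip1 and Sacm1l (Gria4), Rbak and Prmt8 (Grik2), St8sia5 and Xpo7 (Grik1), and Med8 and Fam50a (Grik3), with r from 0.829 to 0.917. Among the members themselves, Gria1 and Grik4 had r = 0.866 over the 12 libraries, but 0.400 within the 6 without DAPT and -0.147 within the 6 with it. Gria1 and Gria3 ran opposite at r = -0.804, with -0.000673 and -0.508 within those sets.

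Promoter windows of 300 bases were at hand for 6 members (RefSeq, GRCm38.p6), and Gria1, Gria3 and Grik1 were not among them. They were searched on both strands for TGGGAA, the core that the Notch partner RBPJ binds, for CACGTG, an E-box, and for CACNAG, the N-box of Hes factors. TGGGAA was found in Grik3 alone, against 25.6% of 32851 mouse promoters of this length. CACNAG was found once each in Gria2, Gria4 and Grik2, against 42.5% of promoters, and CACGTG in none, against 7.15%. Grik4, the called member with a window, held none of these letters in it.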

How the data were processed

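RNA from 12 WT hippocampal cultures was poly-A selected and sequenced as paired-end reads. The authors used Trimmomatic for trimming, HISAT2 for alignment to mm10, StringTie for assembly, which adds loci outside the annotation, and IsoformSwitchAnalyzeR for gene values. Versions are not given in the sources used here. What the authors deposited is a table of estimated counts without scaling across libraries. Within a library the values under 5 are whole numbers of equal steps (to within 0.01 of a step), whatever the gene, as counts rebuilt from length-corrected abundances would be. Here they were rounded, and 1976 loci without a gene name, with 43.4 to 51.8% of the counts, entered neither library sizes nor tests.

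R 4.3.3 with edgeR 4.0.16 was used: filterByExpr (15656 genes left), TMM and the quasi-likelihood F test, with a mean for each of 4 groups, which left 8 residual degrees of freedom. Benjamini-Hochberg adjustment ran over all genes. A call needed an adjusted p under 0.05 and a log2 fold change beyond 0.322, the fold limit used in the study. SE is the log2 fold change divided by the root of F. The fit was also run on simulated data with 200 changed genes, and the outcome is not reported here. The simulated fold changes were larger than those of the members, so that run does not bear on calls near the fold limit. Alternatives used DESeq2 1.42.0, limma 3.58.1 on log2(CPM + 2) after cyclic loess, RLE, no filter, all loci, no Rn45s, only the 6 libraries compared, the replicate number as a block, and each library left out.

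The members and gene lists were chosen with earlier results of these data known. Named were all 9 members, the genes of each list called in both DAPT comparisons (at most 5) or else the 1 or 2 with the largest average DAPT effect, and the 2 genes most like each member. Neto2 and the cell type markers given with values were named outside this rule. Grm6 and Gabra6 were not analysed here, and Gabre, Gabrq and Dsp did not pass the filter. Exon positions came from GENCODE M21 (GRCm38), and up to 0.990% of a member's exon bases overlapped another gene, in each case a small RNA. Protein sequences were not used here, and some genes that the naming rule covers are not reported here.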

Additional observations from a re-analysis of the deposited data

How the results depend on the processing

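Gria1 was called in DAPT against vehicle under all 21 alternatives, and Grik4 under 18 of them. The counts of members called changed as follows. In DAPT against vehicle the count of 2 went to 1 when both libraries that stood apart were left out (an alternative chosen after seeing the data), and ran from 1 to 2 when single libraries were left out. In DAPT and sErbB4 against sErbB4 the count of 0 went to 1 without both libraries that stood apart, and ran from 0 to 1 when single libraries were left out, as it did in DAPT against sErbB4. For the average DAPT effect the count of 0 went to 1 under limma, with unnamed loci kept, with Rn45s left out, and without both libraries that stood apart, and ran from 0 to 2 over single libraries left out. In each of these the gene was Gria1 or Grik4, whose log2 fold change lies close to the limit of 0.322. With the replicate block 2 members were called in DAPT against vehicle, as without it, and the block changed no other count of members. The labels do not say that a number pairs libraries. Over 2000 genes 8 of 18 same-number pairs had a correlation of deviations from the group means above 0.1 (median 0.0338), and 5 of 12 libraries correlated best with one of their own number, so they were treated as unpaired. Over all genes, counts moved by more than 1.5 times under another tool for sErbB4 against vehicle (5 by edgeR, 18 by DESeq2, 4 by limma), sErbB4 within DAPT (0, 8 and 0), the interaction (1, 4 and 1) and, for limma, the average DAPT effect (2072 by edgeR, 1375 by limma). With the block, 2 genes were called for sErbB4 against vehicle, and 0 with only the 6 libraries compared, a setting that called 2 for sErbB4 within DAPT. Leaving out single libraries gave 1 to 5 for sErbB4 against vehicle (1 without sErbB4 replicate 2 or DAPT+sErbB4 replicate 2), 0 to 2 for sErbB4 within DAPT (2 without DAPT replicate 3) and 1 to 3 for the interaction (3 without DAPT replicate 3).

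Differences near 0 changed sign, none of them past the adjusted p. With both libraries that stood apart left out, Gria2 turned to 0.046 against vehicle, 0.11 in the sErbB4 pair, 0.076 on average and 0.061 in the interaction, Grik3 to -0.013 against vehicle, Gria3, Gria4 and Grik4 to -0.016, 0.087 and -0.022 for sErbB4 against vehicle, and Grik2 and Grik4 to -0.026 and 0.028 in the interaction. Under limma, Grik3 and Grik5 turned to -0.018 and 0.0010 with DAPT against vehicle, Grik1 to -0.0086 on average, Grik5 to 0.0021 for sErbB4 against vehicle and to -0.0097 in the interaction, and Grik4 and Grik5 to -0.0010 and -0.0076 for sErbB4 within DAPT. With unnamed loci kept, Grik5 was at 0.0067 for sErbB4 against vehicle, Grik4 and Grik5 at -0.0096 and -0.0085 for sErbB4 within DAPT, and Grik2 and Grik5 at -0.0067 and -0.015 in the interaction. With Rn45s left out, Grik5 was at 0.0033 for sErbB4 against vehicle and at -0.0069 in the interaction, and Grik4 and Grik5 at -0.0047 and -0.0036 for sErbB4 within DAPT. With only the 6 libraries compared, Grik5 was at 0.0034 for sErbB4 against vehicle. The cause was not tested.

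Leaving out single libraries gave these ranges where a sign changed. With DAPT against vehicle they were -0.14 to 0.046 (Gria2), -0.024 to 0.075 (Grik3) and -0.082 to 0.019 (Grik5), and in the sErbB4 pair -0.21 to 0.11 (Gria2) and -0.097 to 0.018 (Grik3). On average they were -0.15 to 0.012 (Gria2), -0.013 to 0.078 (Grik1) and -0.041 to 0.016 (Grik3). For DAPT against sErbB4 they were -0.077 to 0.018 (Grik2), -0.075 to 0.039 (Grik3) and -0.081 to 0.015 (Grik5). For sErbB4 against vehicle they were -0.048 to 0.30 (Gria2), -0.022 to 0.084 (Gria3), -0.090 to 0.047 (Gria4), -0.024 to 0.090 (Grik3) and -0.031 to 0.035 (Grik5). For sErbB4 within DAPT they were -0.078 to 0.021 (Grik3), -0.048 to 0.046 (Grik4) and -0.055 to 0.044 (Grik5). For the interaction they were -0.15 to 0.19 (Gria2), -0.094 to 0.043 (Gria4), -0.043 to 0.11 (Grik2), -0.12 to 0.0030 (Grik3) and -0.058 to 0.047 (Grik5).

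With 3 libraries a group, precision differed between members, from an SE of 0.04 for Gria1 to 0.14 for Gria2 in DAPT against vehicle. Transcript isoforms, editing and protein were not measured.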
